A study of Nannospalax ehrenbergi and Mus musculus with 25 samples.

Results

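The muscle of Spalax that stayed free of tumors after a carcinogen was set against the uninjected side of Spalax that developed a tumor after the same treatment. The 8 libraries were chosen by their labels, out of 25 in the series, and every gene of the deposited table entered the account. Spalax, the blind mole rat (Nannospalax ehrenbergi), is a subterranean rodent. The 8 animals each received a single subcutaneous injection of 3-methylcholanthrene (3MCA), 1 mg in 500 µl, at the left flank of the neck. The first group held 4 tolerant animals, sampled on the injected side: 2251 and 2261, both male, at 18 months after injection, and 2218 (male) and 2375 (female) at 30 months. The second group held the uninjected side (UIS) of 4 tumor-bearing animals: 600 and 976, females with a granuloma at 14 and 16 months, and 2240 (female, 18 months) and 2230 (male, 30 months) with a fibrosarcoma. Muscle of 4 untreated females, 1042, 1075, 2095 and 6038, is given as background. These libraries had dual indexes and are labelled as uninjected. All Spalax were caught in the wild, so no age was known exactly, and no line, clone or transgene was involved.

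3MCA is a polycyclic aromatic hydrocarbon that is activated through the aryl hydrocarbon receptor and forms DNA adducts. In mice it gives rise to fibrosarcoma at the injection site. Skeletal muscle carries a lasting record of where in the body it formed: most muscles of the trunk and limbs derive from somites with Pax3 active in their precursors, muscles of the head and throat and some of the neck derive from pharyngeal mesoderm with Tbx1 and Isl1 active, and the Hox genes mark position along the body axis.

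Side, sequencing index design and outcome cannot be told apart here, because all tolerant libraries came from the injected side with dual indexes and all UIS libraries from the uninjected side with single indexes. The untreated libraries had dual indexes like the tolerant ones, so a likeness of untreated to tolerant libraries cannot be told apart from index design. The tolerant group had 3 males and 1 female, and the UIS group 1 male and 3 females. The labels name the tissue as muscle but not which muscle was cut. Its defining genes were abundant in all 8 libraries: Acta1, skeletal muscle actin, ran from 82517 to 782723 normalised read counts, and Ckm, muscle creatine kinase, from 96457 to 543373. Depth was even, with 18440248 to 20866435 reads in tolerant and 17025447 to 20197732 in UIS libraries, and 1 read was worth 0.751 to 1.42 normalised counts. No pair of libraries within a group was a copy of the other, since their reads differed by 46.0 to 463 times the sampling variance per gene. Values below are listed in the order 2251, 2261, 2218 and 2375 for tolerant, 600, 976, 2240 and 2230 for UIS, and 1042, 1075, 2095 and 6038 for untreated animals. Fold changes are tolerant minus UIS on the log2(normalised count + 1) scale with their SE, and adjusted p-values come from limma over 14029 genes. They measure the spread among these animals, and intervals from reads cover counting error only. In bulk muscle, fewer cells of a type and less RNA per cell cannot be told apart.

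Of 14029 genes tested, 1 passed an adjusted p of 0.05, which is 0.00713%. That gene, LOC103747932, has a provisional name and no function given in the files. Its normalised counts were 0, 1.09, 1.32 and 0 in the tolerant libraries and 204, 189.6, 440.1 and 104 in the UIS libraries. The tolerant libraries held 2 reads of it in all and the UIS libraries 766, so the groups did not overlap, and the UIS mean was 388 times the tolerant mean with a counting interval of 118 to 3526. It fell by 7.12 on the log2 scale in tolerant muscle, with an SE of 0.57 (adjusted p = 0.00507). The untreated animals split into high and near-zero libraries, at 830.4, 0, 151 and 0. All 4 injected-side tumor libraries held it, at 452 in 600, 138 in 976, 799 in 2240 and 227 in 2230, so both samples of each tumor-bearing animal carried the transcript. With sex as a covariate its adjusted p was 0.0623, and without UIS 600 it was 0.0623. In a fit that also held the untreated animals its adjusted p was 0.508.

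**Figure D1:**
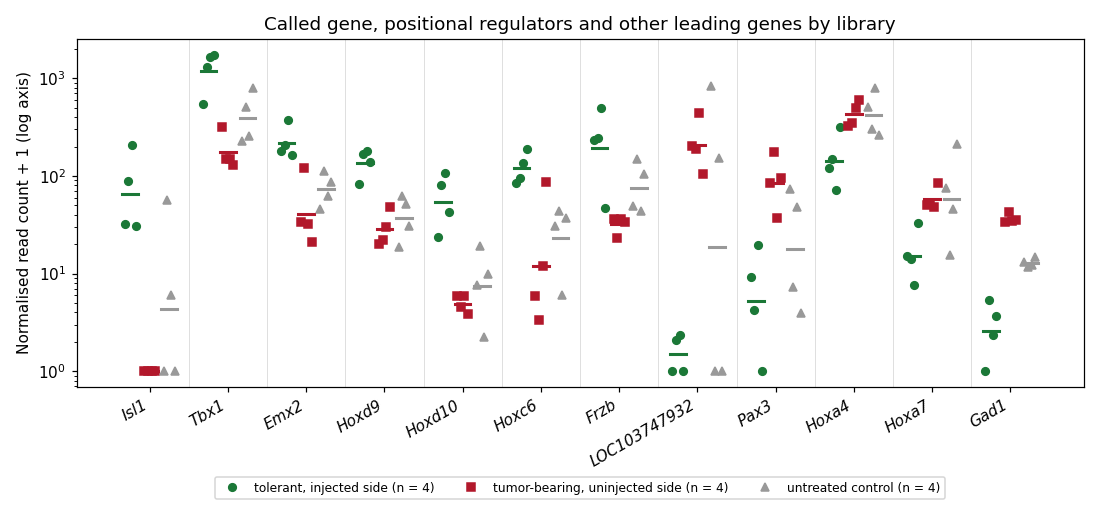
Normalised read count plus 1 on a log axis for 12 genes, with 1 point per library and a bar at the geometric mean of each group (tolerant, UIS and untreated, n = 4 each). The 4 UIS libraries sit at 0 for Isl1, the 4 tolerant libraries sit near 0 for LOC103747932, and the untreated animals have both high and zero values of LOC103747932.

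At an unadjusted p under 0.05 limma gave 293 genes higher in tolerant muscle (2.09%) and 425 lower (3.03%), and 211 genes (1.50%) lay wholly above and 365 (2.60%) wholly below the UIS libraries. The shares of 2.09% and 3.03% are the background for every count of list members below. Scaling by total reads in place of the authors' size factors moved the median of all genes by 0.12 and gave 382 higher and 211 lower. Several of the leading genes were transcription factors that set position in the embryo. Isl1, a LIM homeodomain factor of pharyngeal mesoderm, was read in every tolerant library and in no UIS library. Its normalised counts were 31.5, 88.7, 206 and 29.5 in tolerant muscle and 0 in all 4 UIS libraries. With 301 reads against 0, and 3 reads over the 4 UIS libraries as the limit that 0 allows, it was at least 94.6-fold higher in tolerant muscle. Its adjusted p was 0.0647. Isl1 passed the filter on low values through the tolerant libraries alone, so the filter fixed its sign and the lack of overlap. Leaving out tolerant 2218, the highest library, lowered the tolerant mean to 49.9 and the bound in proportion. The untreated animals held it at 0, 55.7, 4.99 and 0.

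Tbx1, the T-box factor of pharyngeal muscle, was read at 545, 1315, 1641 and 1742 in tolerant libraries against 317, 148, 149 and 128 in UIS libraries. All tolerant libraries lay above all UIS libraries, with 2251 lowest and UIS 600 highest of their groups. The difference was 2.78 ± 0.42 (adjusted p = 0.365), and the untreated animals overlapped both groups, at 226, 504, 253 and 798. Emx2, a homeobox factor needed for the shoulder girdle, was at 179, 205, 373 and 164 against 32.6, 120.1, 31.5 and 19.9, again with no overlap (2.42 ± 0.54, adjusted p = 0.84). Frzb, a secreted Wnt antagonist, was at 235, 245, 497 and 45.6 against 35.0, 22.4, 35.2 and 32.7. Its groups were also apart, with tolerant 2375 close to the UIS range (2.59 ± 0.64, adjusted p = 0.88).

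Pax3, the paired-box factor of somite-derived muscle, had its higher values in UIS muscle. Its normalised counts were 8.26, 3.28, 18.5 and 0 in tolerant muscle and 84.4, 173, 36.4 and 93.8 in UIS muscle, so the 2 groups did not overlap and no read was found in tolerant 2375. The difference was -4.01 ± 0.89 (adjusted p = 0.84). The untreated animals were at 72.9, 6.29, 47.4 and 2.98. The 2 of them with low Pax3, 1075 and 6038, were the 2 with the higher Tbx1 and with no LOC103747932. Other position genes were mixed. Emx2 and Hoxd10 were also higher in 1075 and 6038. Isl1 was not, at 55.7 in 1075 and 0 in 6038, nor was Hoxd9, at 29.8 in 6038 and 51.1 in 2095. The split was seen in the values and was not tested. Barx2 and Tbx15, which act in muscle formation more broadly, overlapped between the groups, at 393 to 1268 against 466 to 1622 for Barx2 and 2751 to 7562 against 5591 to 10920.0 for Tbx15. Among 17 regulators of head, neck and trunk muscle, a list put together after these values were seen, 14 passed the filter on low values and 3 were higher and 3 lower at an unadjusted p under 0.05. Over all genes tested 2.09% were higher and 3.03% lower at that p.

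Values of the Hox genes are given by cluster, and a difference between clusters was not tested. The table held 39 of them and 20 passed the filter, a list also put together after the values were seen. At an unadjusted p under 0.05, 8 of the 20 were higher and 4 lower, and none passed the adjusted threshold in limma. The shares of all genes tested were 2.09% higher and 3.03% lower. In the Hoxc and Hoxd clusters, 9 genes were tested and the fold change was positive for all 9, with median log2 differences of 2.59 over 4 Hoxc genes and 1.38 over 5 Hoxd genes. Hoxd10 reached a value of 10 in tolerant libraries only, so the filter fixed its positive sign. Hoxc5 and Hoxc8 reached 10 in all tolerant libraries but in UIS 2230 alone, so the filter favoured theirs. The shared sign is therefore no support for a difference. In the Hoxa cluster 5 genes were tested and all 5 were negative (median -1.40), and in the Hoxb cluster 3 of 6 were positive (median -0.16). Over all genes tested the median was 0.000705. These counts are descriptions, since genes of a cluster are neighbours and are not independent.

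Hoxd10 was at 22.5, 79.9, 107 and 41.5 in tolerant and 4.82, 3.53, 4.85 and 2.84 in UIS muscle, and Hoxd9 was at 81.1, 168, 179 and 137 against 19.3, 21.2, 29.1 and 46.9. Neither pair of groups overlapped, and the differences were 3.46 ± 0.56 for Hoxd10 (adjusted p = 0.365) and 2.26 ± 0.40 for Hoxd9 (adjusted p = 0.543). Hoxc6 was at 84.1, 95.3, 135 and 189 against 4.82, 2.36, 10.9 and 85.3. Here UIS 2230 reached the tolerant range while the other 3 UIS libraries stayed at 10.9 or below. Hoxc8 had the same arrangement, with 27.8, 17.5, 85.9 and 142 against 4.82, 1.18, 3.64 and 38.4.

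On the Hoxa side, Hoxa4 was at 119, 147, 71.4 and 314 in tolerant and 324, 345, 497 and 599 in UIS muscle, and Hoxa7 was at 14.3, 13.1, 6.61 and 32.2 against 49.4, 51.8, 47.3 and 83.9. Both were higher in every UIS library than in any tolerant library, with tolerant 2375 nearest to the UIS values. The differences were -1.60 ± 0.43 (adjusted p = 0.88) and -1.91 ± 0.50 (adjusted p = 0.88). Untreated animal 6038 stood alone in the table, with Hoxa9 at 499 and Hoxa10 at 238, where no tolerant or UIS library exceeded 24.2 for Hoxa9 or 0.751 for Hoxa10. Which muscle was cut was not labelled, and its part in these differences was not tested.

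**Figure D2:**
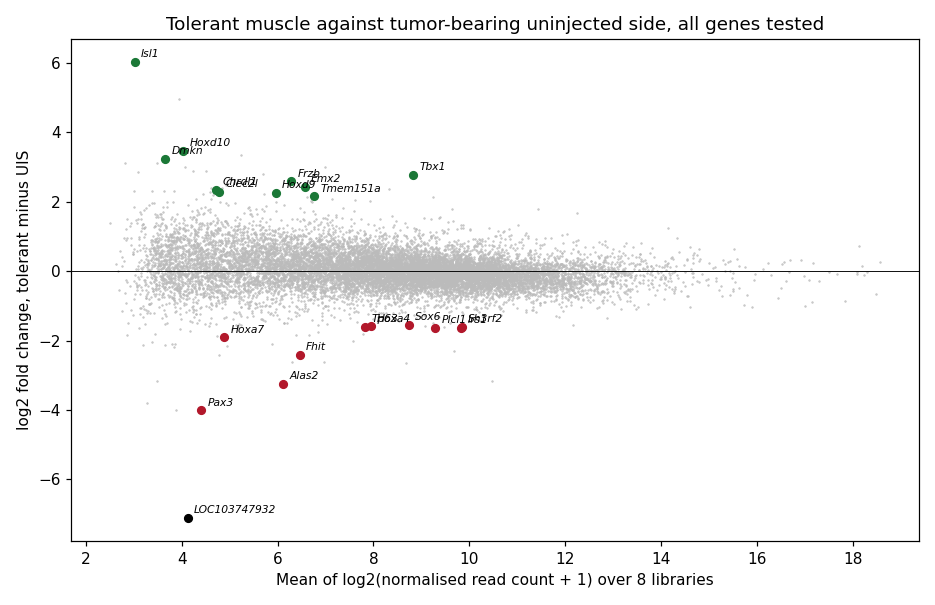
Log2 fold change, tolerant minus UIS, against the mean log2 level over the 8 libraries for all 14029 genes (grey), with LOC103747932 in black, the 10 named genes higher in tolerant muscle in green and the 10 higher in UIS muscle in red. LOC103747932 at -7.12 and Isl1 lie outside the cloud, and 5.85% of genes differ by 1 or more on the log2 scale.

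By the rule for named genes, 97 genes qualified as higher and 215 as lower in tolerant muscle, and the 10 with the largest difference in each direction are described. Beside the position genes, the higher ones were Dmkn, Chrdl1, Clec2l and Tmem151a. Dmkn, a protein secreted by epidermis, was at 195, 26.3, 30.4 and 12.1 against 8.44, 4.71, 0 and 4.26, with most of the tolerant mean in 2251 (3.23 ± 0.96, adjusted p = 0.88). Chrdl1, an antagonist of bone morphogenetic proteins, was likewise high in 2251, at 429, 64.6, 21.2 and 18.8 against 8.44, 4.71, 17.0 and 18.5. Without 2251 and 976 its difference was 1.04, where it had been 2.34. Clec2l and Tmem151a were higher in each tolerant library than in any UIS library, with differences of 2.28 ± 0.66 for Clec2l and 2.16 ± 0.50 for Tmem151a.

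Among the genes lower in tolerant muscle, Alas2, the erythroid enzyme of heme synthesis, was at 11.3, 83.2, 26.4 and 8.04 against 158, 239, 147 and 375. No tolerant library reached the lowest UIS library, and the difference was -3.25 ± 0.68 (adjusted p = 0.84). The untreated animals were at 6.63, 15.3, 63.6 and 35.8. Alas2 is in the list that the study drew from untreated animals against these same UIS libraries. The gap between untreated and UIS values was thus selected for and is no separate support. Hbb, beta globin, overlapped between the groups, at 1387, 10661, 6541 and 759 against 5992, 1088, 6479 and 27617, and the 5 tested erythroid genes had both signs (2 positive, median -0.41). Fhit, a hydrolase of dinucleoside polyphosphates at a fragile site, was at 20.3, 64.6, 35.7 and 41.5 against 456, 66.0, 188 and 296, with UIS 976 just above tolerant 2261 (-2.40 ± 0.60, adjusted p = 0.88).

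For 4 of the genes lower in tolerant muscle, UIS 976 lay far above the other UIS libraries. Irs1, the insulin receptor substrate, was at 661, 739, 468 and 309.6 against 1318, 8682, 773 and 758. Tp63, a p53 family factor, was at 191, 143, 67.4 and 154 against 238, 1634, 272 and 232, and Sox6, a repressor of slow-fiber genes, was at 198, 308, 176 and 365 against 593, 2005, 445 and 553. Sh3rf2, a RING and SH3 protein, was at 519, 495, 619 and 482 against 1241, 3319, 1182 and 1358. All 4 were named for lack of overlap and 976 was their highest UIS library, so leaving it out could not bring overlap. Without 2251 and 976 the difference went from -1.64 to -0.95 for Irs1 and from -1.61 to -1.25 for Sh3rf2. Plcl1, a phospholipase C-like protein, had an even UIS group, at 360.3, 171, 717 and 358 against 1139.6, 1264, 960.2 and 1085 (-1.64 ± 0.38, adjusted p = 0.88).

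When the recovered reads were tested with DESeq2 instead, 38 genes passed an adjusted p of 0.05 (0.271%), while edgeR called 1 gene (0.00713%), LOC103747932. The 38 included LOC103747932, Isl1, Tbx1, Hoxd9, Hoxd10, Frzb, Pax3, Alas2, Fhit, Sh3rf2, Tmem151a and Dmkn. None of the 38 overlapped between the groups, where 1.50% of all genes lay wholly above and 2.60% wholly below. They were called on these same 8 libraries, so this is no separate support. Isl1, Hoxd10 and Dmkn passed the filter through the tolerant libraries alone, and LOC103747932 and Gad1 through the UIS libraries alone. Gad1, which makes GABA from glutamate, was low in tolerant muscle, at 0, 4.38, 1.32 and 2.68 against 32.6, 41.2, 33.9 and 34.1. The untreated libraries lay close together, at 12.1, 10.8, 11.2 and 13.9, between both groups (DESeq2 adjusted p = 7.06e-05, limma adjusted p = 0.365). Nrip1, a nuclear receptor corepressor of metabolic genes, was at 176, 124, 192 and 141 against 377, 449, 489 and 327 (DESeq2 adjusted p = 0.000388). Kcnq5, a potassium channel subunit, was at 296, 419, 509 and 264 against 1523, 733, 997 and 925 (DESeq2 adjusted p = 0.00704).

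Signalling genes were found on both sides of that set. Jak1, the kinase of cytokine receptors, was at 2894, 2517, 2633 and 2257 against 4729.7, 3875, 4193 and 4101, and Socs6, a suppressor of cytokine signalling, at 278, 426, 327 and 371 against 659.7, 515, 874 and 904, both lower in tolerant muscle. Il34, a ligand of the macrophage receptor Csf1r, was higher, at 300.3, 262, 214 and 168 against 103, 84.8, 77.6 and 114. Il11ra, the interleukin-11 receptor, was at 756, 726, 701 and 751 against 472, 505, 369 and 417 with little spread among tolerant animals. Ackr4, a scavenging chemokine receptor, was at 108, 231, 124 and 127 against 39.8, 49.5, 71.5 and 42.6. Igfbp2, which binds insulin-like growth factors, was at 122, 123, 131 and 56.3 against 22.9, 30.6, 17.0 and 44.1. Its untreated range of 90.5 to 232 covered most tolerant values. Igfbp2 is also in the study's list of untreated animals against these same UIS libraries, so its untreated values were selected to differ from UIS.

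Contractile genes of smooth muscle, the cell type of vessel walls, came next. Of 14 tested genes of the smooth muscle and pericyte list, 3 were higher and 0 lower at an unadjusted p under 0.05, with a list median of 0.34. Over all genes tested 2.09% were higher and 3.03% lower. Tagln, transgelin, was at 2136, 2607, 3110.0 and 2561 in tolerant and 986, 1277, 1249 and 1676 in UIS muscle, without overlap (1.02 ± 0.22, adjusted p = 0.84, DESeq2 adjusted p = 0.0103). The untreated animals had 2316, 4785, 4021 and 3033. Actg2 was at 30.0, 33.9, 58.2 and 26.8 against 15.7, 9.42, 7.27 and 9.95, and Acta2 at 1571, 1474, 3163 and 1670.0 against 1194, 1034, 902 and 1511, where UIS 2230 overlapped the tolerant range. The untreated ranges were 28.7 to 127 for Actg2 and 2264 to 3964 for Acta2. Tagln, Actg2 and Acta2 were in the list that the study drew from untreated animals against these same UIS libraries, so they are not independent of it. The pericyte genes Pdgfrb and Rgs5 overlapped between the groups. Pdgfrb was at 706 to 1652 against 598 to 855, and Rgs5 at 5207 to 7560.5 against 4777 to 8521. The summed level of the smooth muscle list was 64487 to 142412 in tolerant and 106259.9 to 149929 in UIS libraries.

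Of 11 tested genes of nerve fibers and Schwann cells 2 were higher and 0 lower at an unadjusted p under 0.05, with a median of 0.76. The shares of all genes tested were 2.09% and 3.03%. Prph, the neurofilament-like peripherin, was at 104, 104, 141 and 48.2 against 33.8, 30.6, 32.7 and 73.9, and Sox10, the Schwann cell factor, at 42.0, 85.4, 87.3 and 42.9 against 15.7, 17.7, 17.0 and 66.8. In both, UIS 2230 stood above the other 3 UIS libraries and within the tolerant range. The summed level of the list ran from 3584 to 9827 in tolerant, 2805 to 6297 in UIS and 5491 to 11989.9 in untreated libraries, and the part of nerve content in these genes was not tested.

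**Figure D3:**
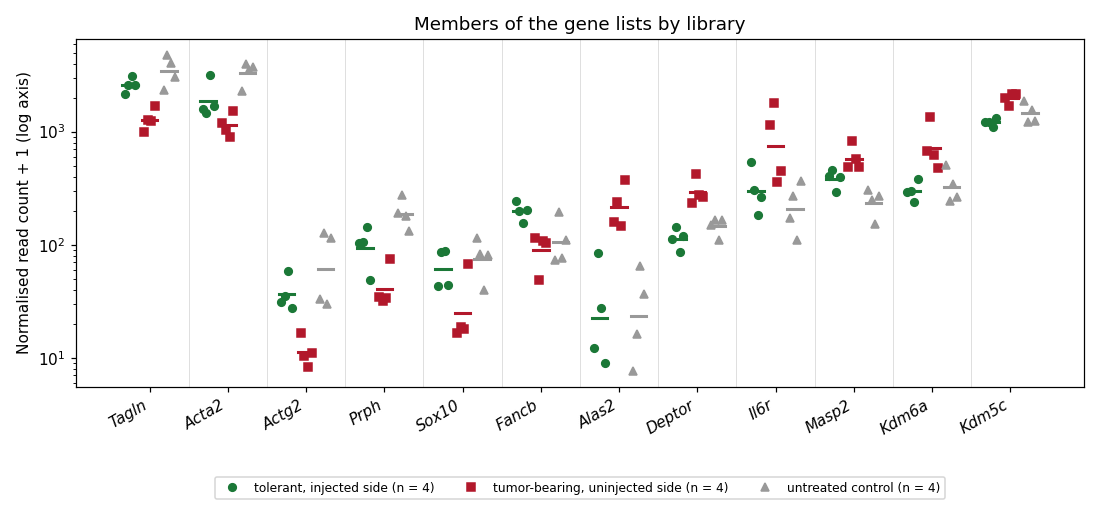
Normalised read count plus 1 on a log axis for 12 members of the gene lists, with 1 point per library and a bar at the geometric mean of each group (n = 4 each). Tagln, Actg2, Fancb, Deptor, Alas2, Masp2, Kdm6a and Kdm5c do not overlap between tolerant and UIS libraries. The untreated Tagln values of 2316 to 4785 overlap the tolerant range of 2136 to 3110 and reach above it. Tagln is in the study's list of untreated animals against these UIS libraries.

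Acute-phase and neutrophil genes mark systemic and local inflammation. Of 15 tested complement and acute-phase genes, 3 were lower and 0 higher at an unadjusted p under 0.05 (list median 0.17, and -0.59 without 2251 and 976). Over all genes tested 3.03% were lower and 2.09% higher. The 3 lower genes were Lcn2, Il6r and Masp2. Lcn2, the iron-binding lipocalin of the acute phase, was at 27.8, 83.2, 46.3 and 8.04 against 371, 503, 81.2 and 92.4, and Il6r, the interleukin-6 receptor, at 535, 301, 181 and 263 against 1136, 1772, 355 and 445. In both, the granuloma animals 600 and 976 were highest, and tolerant libraries overlapped the fibrosarcoma animals. Masp2, a protease that starts the lectin pathway of complement, was at 401, 455, 294 and 398 against 489.6, 824, 569 and 485 without overlap.

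S100a8 and S100a9, the calprotectin subunits of neutrophils, overlapped between the groups. S100a8 was at 129, 343, 42.3 and 9.38 against 1099.8, 297, 61.8 and 71.1, and S100a9 at 11.3, 537, 60.8 and 14.7 against 1489, 558, 75.2 and 145. UIS 600 was highest for both. Over 8 tested neutrophil genes the median was -1.14, with 1 lower at an unadjusted p under 0.05, and the summed level was 99.2 to 4720.4 in tolerant and 362 to 4437 in UIS libraries. No member of the T and NK cell, interferon, macrophage or interleukin, TNF and chemokine lists passed an unadjusted p of 0.05. Their medians were -0.31 over 5 genes, 0.23 over 17, 0.58 over 16 and 0.11 over 11. Without tolerant 2251 and UIS 976 these were -0.86, -0.48, -0.65 and -0.49. B and plasma cell markers (4 tested, median -0.34) and mast cell markers (3 tested, 1 higher) were mostly under the filter.

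Matrix and macrophage genes spread widely among the tolerant animals. Tolerant 2251 had the highest value by 4-fold or more at 246 genes (1.75% of those tested), where tolerant 2261, 2218 and 2375 had 2, 4 and 7 such genes. Spp1, osteopontin, was at 23083 in 2251 and 14.5 to 151 in the other 7 libraries. Postn, the matricellular protein periostin, was at 20990.4 in 2251 and 31.8 to 1281 elsewhere, and Gpnmb, a glycoprotein of lipid-laden macrophages, at 13050.2 and 277 to 633. Col1a1 and Col3a1, the fibrillar collagens, were at 39809.8 and 67242 in 2251 and at 302 and 629 in 2375, the lowest of the tolerant libraries. Cd68 showed the same order, from 1476 in 2251 to 53.6 in 2375.

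No member of the matrix lists passed an unadjusted p of 0.05, while their medians were well above that of all genes. The median was 0.96 over 15 collagens, 0.59 over 11 small leucine-rich proteoglycans, 0.66 over 20 matricellular and remodelling genes, 0.78 over 12 fibroblast genes and 0.59 over 9 tendon and cartilage genes. Without tolerant 2251 and UIS 976 the median changed sign in 20 of the 41 lists with 5 or more tested genes. For the matrix lists it was -0.36, -0.54, -0.18, -0.12 and -0.31, and the macrophage median turned from 0.58 to -0.65. The summed macrophage level was 85712 in 2251 against 3715 in 2375, and 5756 to 15120.2 in UIS libraries.

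The study names 10 matrix genes and their partners. Lum, lumican, was at 16434, 3943, 2746 and 295 in tolerant and 1017, 211, 5189 and 2603 in UIS muscle, and Aspn, asporin, at 4202, 950.4, 393 and 162 against 152, 48.3, 1905 and 557. The groups overlapped for both, and both differences were positive with all 8 libraries (1.04 and 1.25) and negative without 2251 and 976 (-0.70 and -0.47). Fbln5, fibulin-5, was at 933, 809, 718 and 306 against 654, 245, 807 and 775, Chad, chondroadherin, at 33.0, 12.0, 33.1 and 9.38 against 3.62, 1.18, 59.4 and 49.8, and Sfrp1, a Wnt antagonist, at 1212, 702, 473 and 197 against 406, 505, 1009.9 and 490.5. Omd, osteomodulin, stayed under 30 normalised counts in all 8 libraries. Igf2 was at 1182, 758, 342 and 456 against 382, 211, 794 and 486, Jun at 2403, 2478, 2652 and 3971 against 5681, 8784, 2217 and 2249, and Cebpa at 607, 235, 59.5 and 34.8 against 69.9, 36.5, 176 and 1022. None of the 9 that were tested passed an unadjusted p of 0.05, and Kera was under the filter.

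**Figure D4:**
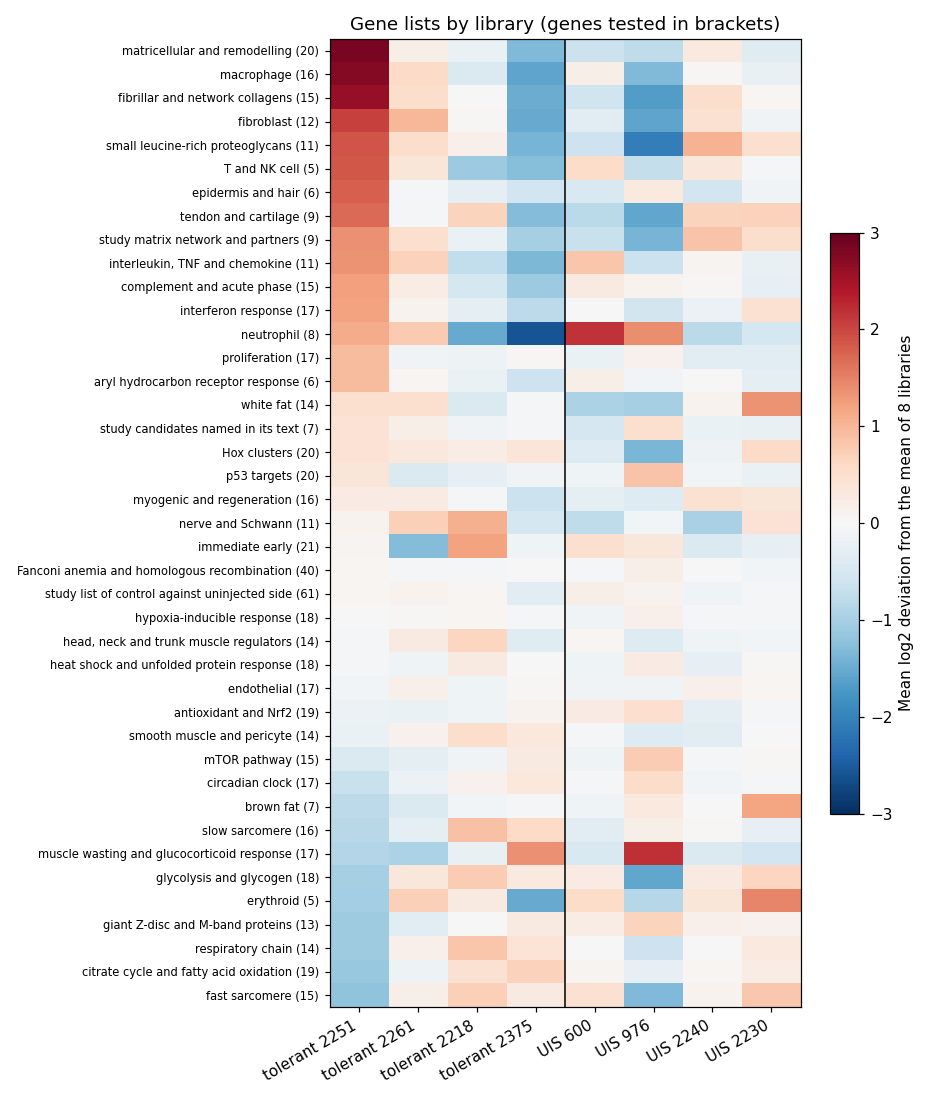
Mean log2 deviation of each library from the mean of the 8, averaged over the tested genes of each list (number in brackets), for 4 tolerant libraries (left of the line) and 4 UIS libraries (right). Matrix, fibroblast and macrophage lists are highest in tolerant 2251, muscle wasting genes are highest in UIS 976 and tolerant 2375, and fat and erythroid lists are highest in UIS 2230.

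Genes of muscle wasting and of the glucocorticoid response were high in 1 animal of each group, UIS 976 and tolerant 2375. Trim63 and Fbxo32 encode the ubiquitin ligases MuRF1 and atrogin-1, which mark muscle protein breakdown. Trim63 was at 2724, 3582, 7495 and 55174 in tolerant and 3625, 36366, 3763 and 3375 in UIS libraries, and Fbxo32 at 1795, 2948, 3206 and 24693 against 9650.0, 38722, 3342 and 2644. Pdk4, which blocks pyruvate entry into mitochondria, was at 144201 in 2375 and 1325 to 12427 in the other 7. Foxo1, the transcription factor that drives both ligases and a candidate of the study, was at 158, 155, 80.7 and 638 against 178, 2990.3, 369 and 266, and Fkbp5, a glucocorticoid target, at 400.1, 462, 536 and 3678 against 519, 10531, 1243 and 1252.

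Of 17 tested genes of the list, 0 passed an unadjusted p of 0.05. The list median was -0.33 with all libraries and 0.42 without 2251 and 976. UIS 976 also had the highest Ppargc1a, the coactivator of mitochondrial genes, at 7355 against 373 to 933 elsewhere. Pvalb, the calcium buffer of fast fibers, was at 86.0 in 976 and at 1467 to 27185 elsewhere. Its glycolytic enzymes were low, with Aldoa at 28305 against 50094 to 234478 and Ldha at 6130.1 against 17036 to 42053. UIS 976 was highest by 4-fold or more at 154 genes (1.10%) and lowest by 4-fold or more at 164 (1.17%).

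UIS 2230 was set apart by Ucp1 and Cidea, genes of brown fat. The mean log2 deviation of the 7 tested brown fat genes was highest in 2230, at 1.18, but not every member peaked there. Dio2 was at 345 in 2230 and 636 in UIS 600, and Ppargc1a at 852 in 2230 and 7355 in UIS 976. Ucp1, the uncoupling protein of brown adipocytes and a candidate named by the study, was at 12999.6 there and at 0 to 6.57 in the other 7 libraries, and it was under the filter. Cidea, a lipid droplet protein of brown fat, was at 5053 against 8.24 to 64.8. Elovl3, also a brown fat gene, was listed at 0 in 2230. Adipoq, adiponectin, which all adipocytes make, was at 1537, 1211, 76.7 and 133 in tolerant and 45.8, 55.4, 616 and 1346 in UIS libraries, so 2230, 2251 and 2261 were all high. The 7 tested brown fat genes had a median of -0.77, with 1 lower in tolerant muscle at an unadjusted p under 0.05. That gene was Zic1, at 113, 93.1, 173 and 96.5 against 319.6, 166, 361 and 289, with untreated values of 734, 253, 629.9 and 53.7. Zic1 was also counted above among the lower regulators of head, neck and trunk muscle. It was lower in UIS 2230 than in UIS 2240, so it did not follow Ucp1 and Cidea. The 14 tested white fat genes had a median of 0.26, or -0.24 without 2251 and 976, and none past that threshold.

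**Figure D5:**
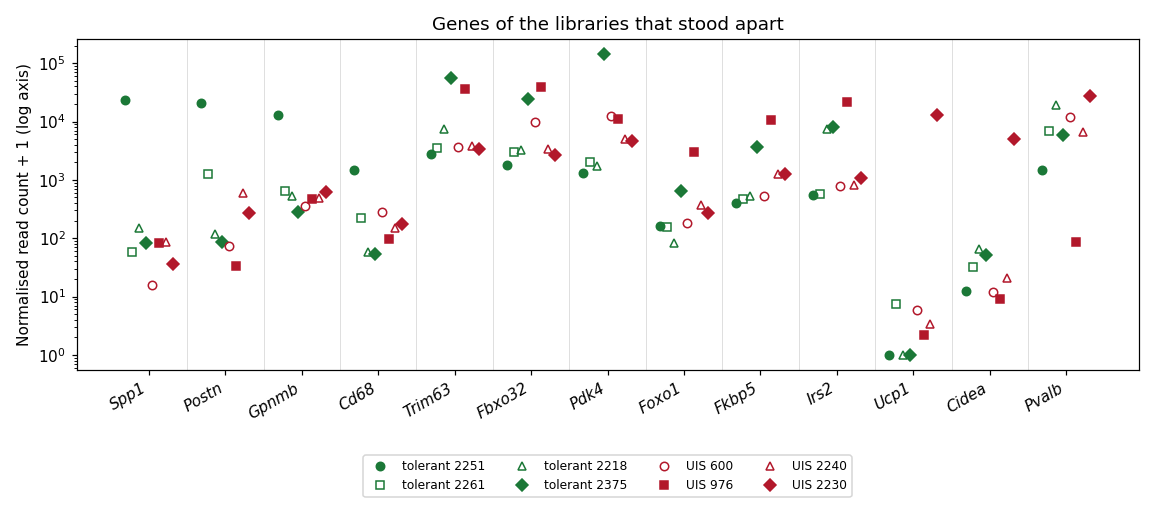
Normalised read count plus 1 on a log axis in each of the 8 libraries (green tolerant, red UIS) for 13 genes that set single libraries apart. Spp1, Postn and Gpnmb peak in tolerant 2251, Trim63 and Fbxo32 in tolerant 2375 and UIS 976, Pdk4 in tolerant 2375, and Ucp1 and Cidea in UIS 2230 (12999.6 and 5053).

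Of 15 fast sarcomere genes, 18 glycolysis and glycogen genes, 14 respiratory chain genes, 19 citrate cycle and fatty acid oxidation genes and 13 giant Z-disc and M-band proteins, 0 passed an unadjusted p of 0.05. Their medians were -0.017, 0.28, 0.14, -0.092 and -0.67, the last -0.22 without 2251 and 976. Of 16 slow sarcomere genes 1 was higher (median 0.24): Casq2, the slow and cardiac calsequestrin, at 477, 644, 1047 and 566 against 423, 187, 144 and 328, with no overlap (1.40 ± 0.38, adjusted p = 0.88). Of 16 myogenic and regeneration genes 1 was higher and 2 were lower, with Pax3 above among the latter. Myod1, the myogenic factor, was at 789.7, 570.5, 979.8 and 1089.6 against 766, 382, 436 and 606, and Musk, the kinase of the neuromuscular junction, at 53.3, 29.6, 21.2 and 18.8 against 48.2, 81.3, 75.2 and 45.5. Myod1 passed as higher and Musk as lower, and both overlapped between the groups.

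Genes that sense the carcinogen or repair its lesions were compared next. None of 6 tested genes of the aryl hydrocarbon receptor response passed an unadjusted p of 0.05 (median 0.28, and -0.25 without 2251 and 976). Tiparp, a direct target of the receptor, was at 912, 704, 1502 and 1525 against 995, 10681, 1214 and 1304, high in UIS 976 alone. Of 40 genes of the Fanconi anemia and homologous recombination pathway, 1 was higher, beside 2.09% of all genes (median -0.027). That gene, Fancb, a subunit of the core complex that repairs DNA crosslinks, was at 240.2, 197, 156 and 202 against 113, 48.3, 108 and 102, and the untreated range of 71.8 to 194 overlapped both groups (1.15 ± 0.33, adjusted p = 0.88).

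Of 20 p53 targets 2 were lower and 0 higher (median -0.22), beside 3.03% and 2.09% of all genes. Mdm2, the ligase that removes p53, was at 2567, 2909, 3849 and 4144 against 4742, 13719, 4831 and 4322 and Zmat3, a zinc finger target of p53, at 1005, 891, 894 and 826 against 1116, 1200.1, 1182 and 1164, both without overlap. Mdm2 was again highest in UIS 976. Cdkn1a, the p21 cell cycle inhibitor and a study candidate, was at 638, 118, 151 and 131 against 84.4, 4011, 251 and 101, high in tolerant 2251 and UIS 976. Of 17 proliferation genes 3 were higher and 0 lower (median 0.084), all at low levels, beside 2.09% and 3.03% of all genes. Plk1, a mitotic kinase, was at 90.8, 70.1, 58.2 and 59.0 against 42.2, 29.4, 35.2 and 41.2 without overlap, Rrm2, a ribonucleotide reductase subunit, at 62.3, 49.3, 29.1 and 24.1 against 30.1, 17.7, 8.49 and 8.53, and Mcm5, of the replicative helicase, at 139, 107, 71.4 and 37.5 against 73.6, 37.7, 6.06 and 11.4.

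In the mTOR pathway 2 of 15 genes were lower and 0 higher (median -0.22), beside 3.03% and 2.09% of all genes. Deptor, an inhibitor bound to mTOR, was at 110.4, 142, 85.9 and 118 against 233, 423, 272 and 263 without overlap (-1.36 ± 0.28, adjusted p = 0.84, DESeq2 adjusted p = 0.00720), and the untreated range was 109 to 165. Tsc1, a suppressor of the same pathway, was at 960.1, 1046, 1218 and 2177 against 1996, 3198, 1787 and 1761, where tolerant 2375 overlapped. Of 21 immediate early genes 1 was lower: Egr1, at 311, 75.6, 850.2 and 33.5 against 2231, 990.5, 769.8 and 654, with an untreated range of 23.9 to 404. Of 18 heat shock and unfolded protein genes 1 was higher, Sdf2l1, at 245, 191, 163 and 123 against 96.5, 129.6, 86.1 and 117. None of 18 hypoxia-inducible, 19 antioxidant, 17 circadian or 17 endothelial genes passed an unadjusted p of 0.05, with medians of -0.047, -0.13, -0.29 and 0.053.

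Skin and glands lie next to the neck muscles. Of 6 tested epidermal genes 1 was higher, Dmkn, and 1 lower, Tp63 (median 0.31, and -0.40 without 2251 and 976). Of 6 salivary and lacrimal gland genes listed in the files only Slc12a2 was tested, an ion cotransporter that muscle also expresses (log2 difference -1.33). It was lower at an unadjusted p under 0.05 without overlap, and 2 of the 6 genes were at 0 in all 8 libraries. The summed level of the 6 was 1602 to 3355 in tolerant, 4259 to 7877 in UIS and 3390.2 to 5520.1 in untreated libraries. Of the 9 candidates that the study names, 7 were tested and 2 were higher at an unadjusted p under 0.05, Nme2 among them. Nme2, a nucleoside diphosphate kinase, was at 3842, 4789, 6588 and 4818 against 3579, 2776, 3269.6 and 3615, above all UIS libraries in each tolerant library (0.58 ± 0.22, adjusted p = 0.88). Nme3 was at 225, 378, 156 and 114 against 201, 87.2, 94.6 and 78.2, Jak3 at 601, 211, 140.2 and 106 against 379, 141, 310.4 and 314, and Sstr4, a somatostatin receptor, at 48.0, 32.8, 23.8 and 8.04 against 19.3, 14.1, 18.2 and 31.3. The groups overlapped for these 3, and Serpina6 and Ucp1 were under the filter.

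The list of genes that the study drew from untreated animals against these UIS libraries is given for completeness. Of its 68 genes 61 were tested, and 15 were higher (24.6%) and 10 lower (16.4%) at an unadjusted p under 0.05. The list was chosen on the same 4 UIS libraries, so its share above the 2.09% and 3.03% of all genes is not independent evidence. It holds Dmkn, Clec2l, Alas2, Sh3rf2, Egr1, Il6r, Masp2, Igfbp2 and Prph, described above. Klhdc8a, a kelch protein, was at 279, 645, 600.3 and 543 against 193, 125, 177 and 48.3, with untreated values of 284, 770.3, 743 and 253. Tmsb4x, the actin-binding thymosin beta-4, averaged 11149 in tolerant and 2836 in UIS libraries. Setd7, a lysine methyltransferase, was lower, averaging 1078 in tolerant and 2639 in UIS libraries.

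Sex and group were unbalanced, and 3 X-linked genes that escape inactivation in other mammals differed with the group. Kdm6a, a histone demethylase, was at 293, 300.0, 235 and 379 in tolerant and 671, 1354, 618 and 472 in UIS muscle. Kdm5c, a related demethylase, was at 1224, 1212, 1104 and 1326 against 1978, 1694, 2147 and 2164, and the RNA helicase Ddx3x at 5082, 5469, 5688 and 6536 against 8506, 11682, 7799 and 6697. All 3 lay higher in every UIS library, the male 2230 included, than in any tolerant library, the female 2375 included. Of 13 sex-linked genes listed only these 3 had values, and 2.60% of all genes tested lay wholly below the UIS libraries. The part of sex in these values was not tested beyond the fit with sex as a covariate. Kdm5c had a DESeq2 adjusted p of 0.0188. The untreated females ranged over 241 to 505 for Kdm6a and 1219.7 to 1863 for Kdm5c, which overlapped both groups.

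Within the tolerant group, 0 of 14349 genes (0%) passed an adjusted p of 0.05 between 18 and 30 months in limma, where 2247 had an unadjusted p under 0.05, and edgeR also called 0 and DESeq2 860. The leading gene was Irs2, an insulin receptor substrate, at 560.0, 578, 7376 and 7950.5 in 2251, 2261, 2218 and 2375, so both 30-month animals lay above both 18-month animals (-3.75 ± 0.27, 18 minus 30 months, adjusted p = 0.131). Among UIS libraries the order did not follow time, with Irs2 at 792, 21437, 815 and 1090.4. Slc25a25, a mitochondrial carrier, and Arrdc3, an arrestin-like protein, had the same direction, at 508, 619, 10981 and 5574 and 1331, 965, 8383 and 12233. Adipoq at 18 months was above 30 months, as was Cdo1, cysteine dioxygenase, at 718, 498, 82.0 and 48.2, and Dlk1, the preadipocyte factor, at 807, 263, 18.5 and 18.8. Both 18-month animals were male and 1 of them was 2251, and the 30-month male 2218 lay with the female 2375 for Irs2, Slc25a25, Arrdc3, Cdo1 and Dlk1. With 2 animals at each time, time and animal cannot be told apart.

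Set against the UIS of each tumor type alone, the tolerant animals gave 0 of 14638 genes (0%) past an adjusted p of 0.05 for fibrosarcoma UIS, with 570 at an unadjusted p under 0.05, and 0 of 14713 (0%) for granuloma UIS, with 796. DESeq2 called 38 and 50, and edgeR 0 in both. LOC103747932 was among the leading genes in both, with differences of -7.18 ± 0.87 and -7.06 ± 0.82 and adjusted p-values of 0.394 and 0.279. LOC103729023, a second gene with a provisional name, was read in every tolerant library, at 23.3, 122, 89.9 and 197, and among UIS libraries in 976 alone, at 0, 55.4, 0 and 0. Hoxc6 led against granuloma UIS (4.77 ± 0.57, adjusted p = 0.279), and so did Myh8, perinatal myosin heavy chain, at 4059, 2156, 9631 and 8152 in tolerant and 198 and 488 in granuloma libraries. In the fibrosarcoma UIS libraries Myh8 was at 9221 and 5580.0, inside the tolerant range. Whether the 2 tumor types differed from each other was not tested.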

How the data were processed

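RNA-seq of muscle was analysed in 4 tolerant, 4 UIS and 4 untreated Spalax. Per the labels and the study's methods, libraries came from a strand-specific kit. The submitters' processing notes name TopHat 1.4.1, HTSeq, DESeq and GRCm38 (the series also holds mice). The study's methods differ, naming TopHat2 and, for Spalax reads, a published Spalax genome. Whether counting used strand is not given in the sources used here. The deposited values are a signal: gene counts that the authors divided by DESeq size factors. Values were whole multiples of 1 read in each library (tolerance 0.01), so reads were recovered. Commas in gene names (2387 names) were restored to t.

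Genes with a value of at least 10 in at least 4 of the 8 libraries were tested with limma 3.58.1 (moderated, Benjamini-Hochberg adjustment) on log2(value + 1). edgeR 4.0.16 and DESeq2 1.42.0 on recovered reads were alternatives, with other pseudocounts, filters, scalings, covariates and libraries left out. Named were called genes; the 10 largest differences each way among genes with an unadjusted p under 0.05, no overlap, a mean of at least 50 in the higher group and no provisional name; up to 4 members with the smallest p of each of 39 lists with 5 or more tested genes; and genes named by the study. Other genes, such as those called by DESeq2 and those that set a library apart, were chosen after their values were seen. Some genes that the rule selects are not reported here. Members and lists were chosen with earlier results of these data known.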

Additional observations from a re-analysis of the deposited data

Results flagged for a closer look

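For 123 genes of the report, each group of 4 was examined for a library whose gap to the nearest of the others exceeded, as a share of the group's range, Dixon's critical value for 4 libraries, on normalised counts without a log. Of 246 groups 57 met it. Chance would flag about 1 in 20 groups of normally distributed values, and whether these counts follow that shape was not tested. Several of the genes were also included because 1 library stood apart, so the count is not to be read against that share. No explanation was tested. UIS 976 gave 18, tolerant 2251 gave 12, UIS 2230 gave 9 and tolerant 2375 gave 7.

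In UIS 976, Emx2 was at 120.1 (others 19.9 to 32.6) and Irs1 was at 8682 (others 758 to 1318). Sh3rf2 was at 3319 (others 1182 to 1358) and Tp63 was at 1634 (others 232 to 272). Sox6 was at 2005 (others 445 to 593) and Foxo1 was at 2990.3 (others 178 to 369). Cdkn1a was at 4011 (others 84.4 to 251) and Mdm2 was at 13719 (others 4322 to 4831). Fancb was at 48.3 (others 102 to 113) and Tsc1 was at 3198 (others 1761 to 1996). LOC103747829 was at 13825 (others 6126 to 6809.6) and Hoxd4 was at 23.6 (others 83.7 to 89.6). Trim63 was at 36366 (others 3375 to 3763) and Fkbp5 was at 10531 (others 519 to 1252). Ppargc1a was at 7355 (others 488 to 933) and Irs2 was at 21437 (others 792 to 1090.4). LOC103729023 was at 55.4 (0 in the other 3) and Tiparp was at 10681 (others 995 to 1304).

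In tolerant 2251, Dmkn was at 195 (others 12.1 to 30.4) and Chrdl1 was at 429 (others 18.8 to 64.6). Cdkn1a was at 638 (others 118 to 151) and LOC103733211 was at 80.3 (others 123 to 127). Hoxb3 was at 61.6 (others 17.4 to 19.8) and Spp1 was at 23083 (others 56.9 to 151). Postn was at 20990.4 (others 85.8 to 1281) and Gpnmb was at 13050.2 (others 277 to 633). Col1a1 was at 39809.8 (others 302 to 2180.0) and Col3a1 was at 67242 (others 629 to 7701). Cd68 was at 1476 (others 53.6 to 221) and Elovl3 was at 0.751 (0 in the other 3).

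In UIS 2230, Hoxa7 was at 83.9 (others 47.3 to 51.8) and Cebpa was at 1022 (others 36.5 to 176). Prph was at 73.9 (others 30.6 to 33.8) and Sox10 was at 66.8 (others 15.7 to 17.7). Hoxa5 was at 212 and Hoxc6 was at 85.3 (others 2.36 to 10.9). Hoxc8 was at 38.4 (others 1.18 to 4.82) and Ucp1 was at 12999.6 (others 1.18 to 4.82). Cidea was at 5053 (others 8.24 to 19.4).

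In tolerant 2375, Jun was at 3971 (others 2403 to 2652) and Foxo1 was at 638 (others 80.7 to 158). Igfbp2 was at 56.3 (others 122 to 131) and Trim63 was at 55174 (others 2724 to 7495). Fbxo32 was at 24693 (others 1795 to 3206) and Pdk4 was at 144201 (others 1325 to 1996). Fkbp5 was at 3678 (others 400.1 to 536).

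In UIS 600, Tbx1 was at 317 (others 128 to 149) and Nme3 was at 201 (others 78.2 to 94.6). Elovl3 was at 1.21 (0 in the other 3) and Slc25a25 was at 1669 (others 714 to 730.2).

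In UIS 2240, Sfrp1 was at 1009.9 (others 406 to 505) and Prrx1 was at 1802 (others 1046 to 1165). Col3a1 was at 9455 (others 1288 to 2489).

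In tolerant 2261, Ackr4 was at 231 (others 108 to 127) and Ucp1 was at 6.57 (0 in the other 3). S100a9 was at 537 (others 11.3 to 60.8).

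In tolerant 2218, Acta2 was at 3163 (others 1474 to 1670.0).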

How the results depend on the processing

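The count of 1 gene at an adjusted p of 0.05 was 0 with a pseudocount of 0.1, 3 without the filter, 2 with scaling by total reads, 38 with DESeq2, 5 with voom weights, 0 with the 12 muscle libraries in 1 model and 0 with sex as a covariate. Where it was 0, limma had 716, 987 and 286 genes at an unadjusted p under 0.05. It was 3 without tolerant 2251 and UIS 976 and 0 in tolerant and fibrosarcoma libraries blocked by months, both chosen after seeing the data; the latter had 641 such genes. Leaving out 1 library gave 0 to 1, with 0 (and 550 such genes) without UIS 600. LOC103747932 kept its direction and lost its call at pseudocount 0.1 (-9.15, adjusted p = 0.0645), with voom (-7.54, 0.116), 12 libraries (-7.12, 0.508), 16 libraries (-7.12, 0.675), sex (-6.98, 0.0623), fibrosarcoma blocked by months (-7.18, 0.476) and without UIS 600 (-7.12, 0.0623). Leaving out 1 library gave -7.44 to -6.75. The 16-library model called Gad1 instead, and voom called Isl1, Tbx1, Emx2, Hoxd10 and LOC103729023. DESeq2 gave 860 genes for 18 against 30 months, 38 against fibrosarcoma UIS and 50 against granuloma UIS, where limma gave 0. Leaving out 1 library gave 0 to 0, 0 to 3 (3 without tolerant 2251) and 0 to 3 (3 without UIS 600); a lone library is then assumed to vary like the others. The causes were not tested.

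Over 92 named genes and 23 alternatives, 2004 values kept direction and side of the threshold, 7 lost a call, 44 gained one and 42 in 11 genes changed sign. Another 19 of the 2116 have no value, since the genes were under the stricter filter of 50. None of the 11 passed the threshold. Aspn was 1.25 and became -0.20 (voom), -0.47 (without 2251 and 976), -0.53 (fibrosarcoma blocked). Chad was 0.59 and became -0.36 (edgeR), -0.35 (DESeq2), -0.79 (voom), -0.37 (sex), -0.54 (without 2251 and 976), -1.48 (fibrosarcoma blocked), and ran from -0.28 to 1.32 with 1 library left out. Fbln5 was 0.18 and became -0.16 (voom), -0.33 (sex), -0.40 (without 2251 and 976), -0.31 (fibrosarcoma blocked), and ran from -0.22 to 0.53 with 1 library left out. Lum was 1.04 and became -0.23 (voom), -0.35 (sex), -0.70 (without 2251 and 976), -0.45 (fibrosarcoma blocked). Omd was 0.15 and became -0.22 (fibrosarcoma blocked), and ran from -0.12 to 0.55 with 1 library left out. Sfrp1 was -0.089 and became 0.030 (total reads), 0.12 (edgeR), 0.13 (DESeq2), 0.20 (months), and ran from -0.49 to 0.39 with 1 library left out. Igf2 was 0.54 and became -0.11 (without 2251 and 976), -0.023 (fibrosarcoma blocked). Jun was -0.50 and became 0.33 (fibrosarcoma blocked). Cebpa was -0.16, and ran from -0.89 to 0.77 with 1 library left out. Cdkn1a was -0.63 and became 0.042 (without 2251 and 976), 0.30 (fibrosarcoma blocked), and ran from -1.25 to 0.61 with 1 library left out. Sstr4 was 0.24 and became -0.45 (sex), -0.24 (without 2251 and 976), -0.011 (fibrosarcoma blocked), and ran from -0.088 to 0.73 with 1 library left out. No paired analysis was possible because the 8 libraries came from 8 different animals and tolerant and UIS replicates share no label that pairs them. Scaling by total reads shifted the median of all genes by 0.12 and gave 382 higher and 211 lower of 593 genes at an unadjusted p under 0.05. With 4 libraries a group, a median SE of 0.352 limits how small a difference could pass.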

Other observations

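The members of the gene lists with the smallest p-values were fixed for description whether or not they passed. Most of those not given above follow as log2 differences, tolerant minus UIS, with the SE for some. None of them had an unadjusted p under 0.05. Among fast-fiber genes the actin crosslinker Actn3 differed by -0.56 ± 0.67, Myoz1 by -0.42 ± 0.49, Mybpc2 by -0.58 ± 0.71 and the fast troponin I Tnni2 by 0.31 ± 0.64. Of 16 slow-fiber genes 10 were positive, and the differences were 0.68 ± 0.43 for Ankrd2, 0.69 ± 0.51 for the slow light chain Myl3 and 0.63 ± 0.51 for the slow troponin T Tnnt1. Of 13 genes of large scaffold proteins 2 were positive, and the differences were -0.99 ± 0.50 for Cmya5, -0.96 ± 0.51 for Myo18b, -1.10 ± 0.64 for Xirp1 and -0.36 ± 0.25 for the M-band protein Myom3. Megf10, a satellite cell receptor, differed by 0.52 ± 0.31, and Cebpb, a factor of the glucocorticoid response, by -0.61 ± 0.62.

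In energy metabolism the hexokinase Hk2 was at -0.69, the phosphorylase kinase subunit Phka1 at -0.56, and the glycolytic enzymes Pkm and Pgk1 at 0.69 and 0.52. The ATP synthase genes Atp5g1 and Atp5o differed by 0.53 and 0.41, and the succinate dehydrogenase genes Sdhd and Sdhc by 0.32 and 0.24. Ppara, the nuclear receptor of fatty acid oxidation, differed by -0.74 ± 0.52, the fatty acid carrier Fabp3 by 0.50 ± 0.49 and the uncoupling protein Ucp3 by 0.95 ± 1.05. Among hypoxia genes Vegfa was at 0.84, Ndrg1 at 0.57, Hif3a at -0.70 and Epas1, the HIF-2 alpha subunit, at -0.29 ± 0.20, the last without overlap between the groups. In the antioxidant list Gpx1 differed by 0.51 ± 0.24, the mitochondrial dismutase Sod2 by -1.03 ± 0.65, and the glutathione synthesis subunits Gclm and Gclc by -1.26 ± 0.82 and -0.40 ± 0.28.

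Collagen and matrix members followed the lists, at 1.09 for Col5a3, 1.18 for Col16a1, 1.01 for Col6a2, 0.96 for Col6a1, 0.46 for Podn, 1.10 for biglycan (Bgn), 0.89 for Loxl1 and 0.90 for Sparc. Fibroblast genes gave 1.53 for S100a4, 1.25 for Clec3b, 0.84 for Cd34 and 0.81 for Gsn. The tendon and cartilage genes Cilp, Sox9, Acan and Scx differed by 0.86, 0.54, 0.94 and 0.53. Macrophage genes gave 1.25 for the scavenger receptor Cd163, 1.16 for Cd14 and 0.95 for Fcer1g. These values hold all 8 libraries. Without tolerant 2251 and UIS 976 the medians of the matrix, fibroblast, tendon and macrophage lists were negative, as given above, while Cd163 was at 1.05.

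Of the genes that act on the carcinogen or on DNA, Arnt, the partner of the aryl hydrocarbon receptor, differed by -0.37 ± 0.17 and Slx4, a nuclease scaffold of crosslink repair, by -0.58 ± 0.26, both without overlap. Lrrc25 was at 0.81, Rpa1 at -0.42, Ercc4 at -0.45, Aen at -0.34 and the replication helicase subunit Mcm2 at 0.76. Among immune genes, the eosinophil chemokine Ccl11 differed by 1.98 ± 0.95, and the cytokine feedback genes Cish and Socs3 by -2.02 ± 0.99 and -1.42 ± 0.73. Il18 was at 0.94, Cfi at 1.18, Cfd at 0.92, Ltf at -0.79, Cd247 at -0.49, Ccl5 at 0.64, Cd2 at -0.31 and Cd3d at -0.31. The interferon genes Psmb8, Isg15, Ifngr1 and Irf7 differed by 0.70, -0.77, 0.41 and 0.42.

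Fat genes gave -0.98 for resistin (Retn), 0.57 for Agpat2, 0.51 for the hormone-sensitive lipase Lipe and -1.19 for the deiodinase Dio2. The endothelial genes Flt1, Nos3, Vwf and Egfl7 differed by -0.78, -0.51, 0.29 and 0.46. Cnn1, a smooth muscle calponin, was at 0.58, the Schwann cell gene Prx at 0.62, the erythroid genes Bpgm and Tfrc at 0.37 and 0.42, and the epidermal genes Krt10 and Perp at 0.36 and 0.54. Stress and clock genes gave -0.72 for Zfp36, 0.47 for Ier3, -0.54 for Myc, 0.63 for Ddit3, -0.54 for Hspb1, 0.42 for Atf4, -0.80 for Hlf, -0.38 for Bhlhe41 and -0.72 for Nr1d2. Mtor itself differed by -0.53 and Tsc2 by -0.38.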
